A study of Mus musculus with 2 samples.

Results

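The 9 miRNAs described here are mature arms of miR-322, miR-503, miR-351, miR-542, miR-450a and miR-450b, which lie side by side on the mouse X chromosome. They were found by probe name among the 1900 miRNA probes of each array: mmu-miR-322-5p, mmu-miR-322-3p, mmu-miR-503-5p, mmu-miR-503-3p, mmu-miR-351-5p, mmu-miR-542-3p, mmu-miR-542-5p, mmu-miR-450a-5p and mmu-miR-450b-5p. The prefix, which marks the mouse, is left out below. All 9 had a spot of their own on both arrays, 8 gave a signal above the detection limit on both, and miR-450b-5p gave none on either. No member differed 2-fold between the diets under the reported processing. For all detected members but miR-322-5p, a 2-fold fall in normalised intensity on high-fat diet could not have been seen, however far the signal fell. That processing adds an offset to every spot, which left even the undetected miR-450b-5p at a normalised intensity of 53.39 on the high-fat array. Among those members the highest normalised intensity on the normal-diet array was 91.14, for miR-351-5p. The offset shrinks rises as well as falls, also for miR-322-5p, so a 2-fold change in net signal could go uncalled for any member.

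Epididymal adipose tissue, a visceral fat pad of male mice, was taken from C57BL/6J animals after 8 weeks on a high-fat diet that supplied 60% of its energy as fat, or after 8 weeks on a normal diet with 5% fat. All mice were 8 weeks old when feeding began, and the labels name no genetic change or other agent. Each diet is represented by 1 array of Cy5-labelled total RNA, at slide position 2 for high-fat diet and position 1 for normal diet, so diet and position cannot be told apart. The number of animals behind each array is not given in the labels, and no p-value or standard error across animals could be computed. The labels name the tissue as the source and, in the extraction note, cells, so which cells gave the RNA is not further defined.

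A miRNA is cut from the arm of a hairpin precursor, and bases 2 to 8 of the mature strand, the seed, guide it to matching messenger RNAs, which it represses. The miR-322 and miR-503 precursors lie on a common transcript, and miR-322 is the rodent counterpart of human miR-424. In cultured mouse myoblasts both are known to rise during muscle differentiation and to help cells leave the cell cycle, with the phosphatase Cdc25a among their targets. Members of this cluster have also been linked to fat cell differentiation.

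The mature strands show which members can be expected to share targets and which are near copies of each other. In the following lines each RefSeq sequence (GRCm38.p6) is written 5′ to 3′ with its seed in capitals.
miR-322-5p: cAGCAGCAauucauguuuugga
miR-322-3p: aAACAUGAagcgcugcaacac
miR-503-5p: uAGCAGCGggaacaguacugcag
miR-503-3p: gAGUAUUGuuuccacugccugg
miR-351-5p: uCCCUGAGgagcccuuugagccug
miR-542-5p: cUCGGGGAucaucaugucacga
miR-542-3p: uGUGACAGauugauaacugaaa
miR-450a-5p: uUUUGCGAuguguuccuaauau
miR-450b-5p: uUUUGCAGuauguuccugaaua

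No pair of the 9 had the same seed over all 7 bases. miR-322-5p and miR-503-5p share bases 2 to 7 and part at base 8, and beyond the seed they diverge, with 11 of 22 positions identical when aligned from the 5′ end. miR-450a-5p and miR-450b-5p were identical at 15 of 22 positions. miR-450a-5p is encoded by 2 precursors, Mir450-1 and Mir450-2, with the same mature strand, so its spot cannot separate them.

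In RefSeq the 7 precursors span chrX:53047997-53054349 on the minus strand, 6353 bases, in the transcribed order Mir322, Mir503, Mir351, Mir542, Mir450-2, Mir450-1 and Mir450b. Mir322 and Mir503 are 200 bases apart, Mir503 and Mir351 630 bases, and the widest gap, 3767 bases, separates Mir351 from Mir542. The first 3 precursors lie within the coordinates of the long noncoding RNA gene C430049B03Rik (chrX:53053112-53057190). No other miRNA gene of the table lay within 100 kb of Mir322. Both arms of the first pair of hairpins were measured, and their place in the precursor is shown by capitals in the next lines.
Mir322 hairpin: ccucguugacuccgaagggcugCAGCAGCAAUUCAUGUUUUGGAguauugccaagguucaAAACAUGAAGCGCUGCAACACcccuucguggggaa
Mir503 hairpin: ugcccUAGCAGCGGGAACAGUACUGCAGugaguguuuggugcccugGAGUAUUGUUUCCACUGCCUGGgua

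Each value below starts from the net signal, which is the median intensity of a spot minus the trimmed mean of the blank spots on its array. The blanks averaged 69.24 on the high-fat array and 75.65 on the normal-diet array. A spot was called detected above the blank mean plus 2 SD, a net signal of 1.585 on the high-fat array and 1.868 on the normal-diet array. This limit passed 1510 miRNAs on high-fat diet, 1370 on normal diet and 1339 on both arrays. Each miRNA has 1 spot per array, so the only measured error is that of control probes with 8 spots each. For S-Probe27, with mean net signals of 97.33 and 116.6 on the high-fat and normal-diet arrays, the SD of a single-spot log2 difference was 0.17, and for S-Probe26, at 354.1 on the high-fat array and 445.3 on the normal-diet array, it was 0.13. For the dim S-Probe7, at 7.06 on the high-fat array and 5.345 on the normal-diet array, it was 0.68. These SDs cover spots within an array and not differences between animals.

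miR-322-5p, an arm known to target Cdc25a, was far above the detection limit on both arrays. Its net signal was 211.4 on the high-fat array and 235.5 on the normal-diet array. After background correction with an offset and quantile scaling, its normalised intensity was 258.6 on high-fat diet and 305.4 on normal diet, a log2 difference of -0.24. In the authors' deposited table the intensities were 328.9 on high-fat diet and 437.6 on normal diet, a log2 difference of -0.41. The value stayed below 0 with 75th percentile, median, cyclic loess and no scaling, from -0.24 to -0.13. It was 0.19 when the arrays were scaled to the spike controls and 0.11 when the background was the scanner's local one. Of 132 other miRNAs with a mean net signal within 2-fold of it, 72 were lower on the high-fat array. Their median log2 difference was -0.04, and the 10th and 90th percentiles were -0.68 and 0.57, a range that includes miR-322-5p. Against miRNAs of like signal chosen in the same way, miR-322-3p lay at the 10th percentile (-0.21), and the other 6 members lay between their 10th and 90th percentiles. At the miR-322-5p spot the local background column read 138.3 on the high-fat array and 201.5 on the normal-diet array, well above the blanks on both.

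miR-322-3p, the opposite strand of the same hairpin, was dimmer. It had a net signal of 23.21 on the high-fat array and 26.82 on the normal-diet array. Its normalised intensities of 73.83 on high-fat diet and 85.32 on normal diet gave a log2 difference of -0.21. The 2 arms of Mir322 had differences 0.03 apart under this scaling, and 0.05 apart in net signal. The gap depended on the processing: miR-322-3p minus miR-322-5p ran from -0.37 with plain subtraction and quantile scaling to 0.05 with 75th percentile scaling. Neither arm kept its sign with spike-control scaling, where miR-322-3p was at 0.24.

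miR-503-5p, which shares 6 seed bases with miR-322-5p, had the higher value on the high-fat array. Its net signal was 28.68 on high-fat diet and 17.34 on normal diet, a ratio of 1.654. The normalised intensities were 78.84 on high-fat diet and 74.72 on normal diet, a log2 difference of 0.08, and the deposited intensities of the authors' table were 44.62 on high-fat diet and 32.22 on normal diet (0.47). It was the member with a value above 0 under all 12 ways of processing tried, from 0.08 under quantile scaling with the offset to 1.05 by plain subtraction with spike-control scaling. These ways reuse the same 2 spots and are not independent checks of the sign. With spike-control scaling, for example, 1262 of all 1339 miRNAs were above 0. How many of all miRNAs were above 0 in every one was not counted. The offset of 50 added to every spot shrinks such a dim difference. miR-503-3p, the other strand of this hairpin, was close to the detection limit, at a net signal of 4.146 on the high-fat array and 3.036 on the normal-diet array. Its log2 difference of -0.02 changed sign with the processing, with a range of -0.33 to 0.77.

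Mir322 and Mir503 are neighbours on a transcript, yet miR-322-5p and miR-503-5p had differences of opposite sign under quantile scaling. The gap between their log2 differences does not depend on a common shift between the arrays: miR-503-5p minus miR-322-5p was 0.32 with the offset and 0.88 in net signal. It was -0.03 with the local background, so it is not seen under every background. With 1 spot and 1 array per diet the gap has no replicate check. The spot error of neither miRNA was measured.

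**Figure D1:**
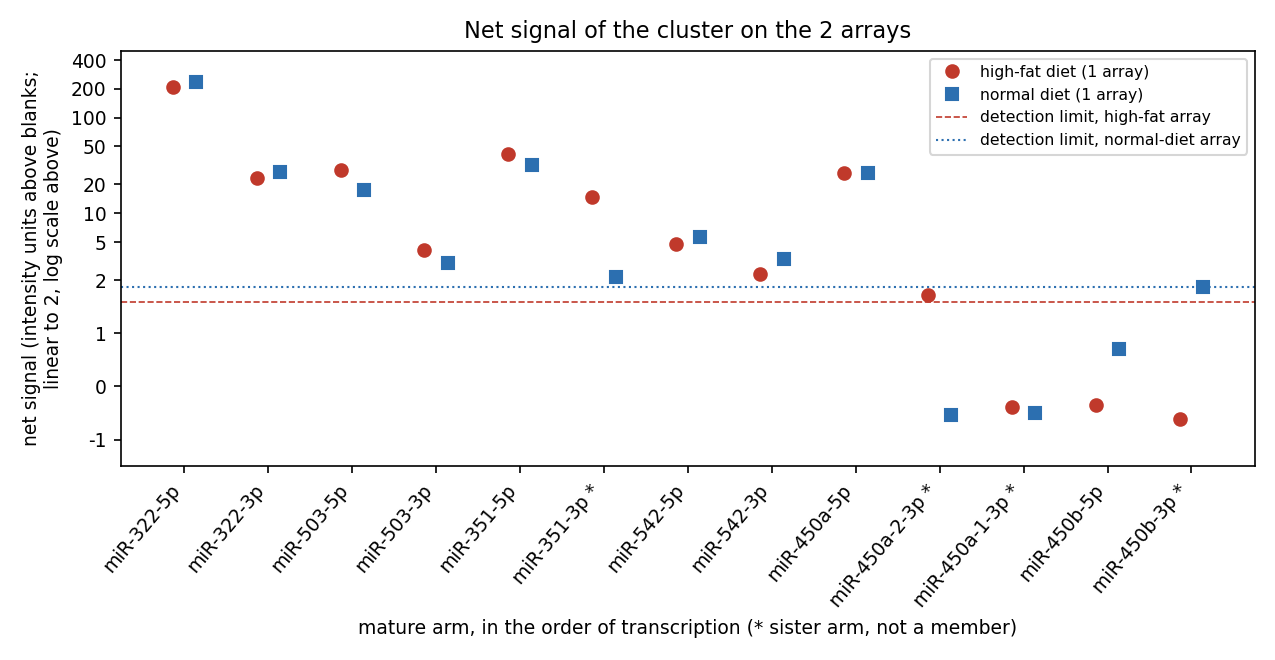
Net signal (spot median minus blank mean, intensity units, linear to 2 and on a log scale above) of the 9 members and their 4 sister arms, 1 point per array, with high-fat diet as circles left of normal diet as squares and the detection limits as horizontal lines. miR-322-5p stands at 211.4 on high-fat diet and 235.5 on normal diet, while miR-450b-5p lies under both limits.

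miR-351-5p, which has the seed of the miR-125 miRNAs, was measured at a net signal of 41.82 on the high-fat array and 32.2 on the normal-diet array. Quantile scaling placed it at 90.5 on high-fat diet and 91.14 on normal diet, a log2 difference of -0.01. The deposited intensities in the authors' table were 65.06 on high-fat diet and 59.84 on normal diet (0.12). Its difference was above 0 in 8 of the 12 ways of processing and below 0 in 4, from -0.03 to 0.70.

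The sister arm miR-351-3p, from the same hairpin but not among the 9, differed far more in net signal. It had 14.83 on the high-fat array and 2.167 on the normal-diet array, the second only just above the limit of 1.868. The net log2 ratio was 2.77, the authors' deposited table gave 2.52, and the offset reduced it to 0.22 under quantile scaling. Its value was above 0 in all 12 ways of processing, which reuse the same 2 spots, with 0.06 by the local background as the smallest. The difference was 12.66 intensity units, and a ratio against so dim a spot is imprecise.

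miR-542-3p, which is known to target the survivin messenger RNA in human cells, was dim on both arrays. Its net signals were 2.301 on high-fat diet and 3.361 on normal diet, and its log2 difference was -0.07. miR-542-5p had 4.83 on high-fat diet and 5.683 on normal diet, with a log2 difference of -0.09. The net difference, high-fat minus normal diet, was -1.06 units for miR-542-3p and -0.853 units for miR-542-5p, against blank SDs of 0.793 on the high-fat array and 0.934 on the normal-diet array. With plain subtraction followed by quantile scaling, miR-542-3p was at -1.08, past 2-fold, and miR-542-5p at -0.97. These signals are too near the blanks for a fold change to be read from them.

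miR-450a-5p was nearly equal in net signal, at 26.33 on the high-fat array and 26.28 on the normal-diet array. Its normalised intensity was 76.88 on high-fat diet and 84.78 on normal diet (log2 difference -0.14), and in the authors' deposited table it was 40.97 on high-fat diet and 48.85 on normal diet (-0.25). miR-450b-5p lay under the limit, at -0.35 on the high-fat array and 0.70 on the normal-diet array, so no fold is given. The 3 sister arms of the miR-450 hairpins were also at or near the blanks. miR-450a-2-3p had 1.726 on high-fat diet and -0.53 on normal diet, miR-450b-3p had -0.61 on high-fat diet and 1.871 on normal diet, and miR-450a-1-3p had -0.39 on high-fat diet and -0.50 on normal diet. Each of the first 2 passed the limit on 1 array only and by a small margin. miR-450a-1-3p and miR-450b-3p have the same seed and are identical at 20 of 22 positions, so their spots could not be read as fully separate measurements.

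Across the 8 members detected on both arrays, 7 were lower on the high-fat array and 1 was higher under quantile scaling, with a median log2 difference of -0.08. Of the 7, miR-503-3p, miR-542-3p and miR-542-5p were too near the blanks for their direction to be read. miR-351-5p was at -0.01 with a higher net signal on high-fat diet, and miR-450a-5p had a net ratio of 1.002. Over all 1339 miRNAs detected on both arrays, 862 were lower and 471 higher, with a median of -0.04. At least 2-fold differences were seen for 0 of the 8 members, against 2.02% of all miRNAs (1.27% higher and 0.747% lower). The members' range was -0.24 to 0.08, against -2.20 to 4.31 over all. A count of 0 among 8 is close to that background and is not a result about the cluster. Most members are dim, and the offset holds dim probes near 0. Of the 8, only miR-322-5p was bright enough for its normalised intensity to fall 2-fold at all. Even there, a 2-fold fall in net signal could read as a smaller fold because of the offset. Rises are shrunk too: the sister arm miR-351-3p had a net ratio of 6.843 and a log2 difference of 0.22.

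**Figure D2:**
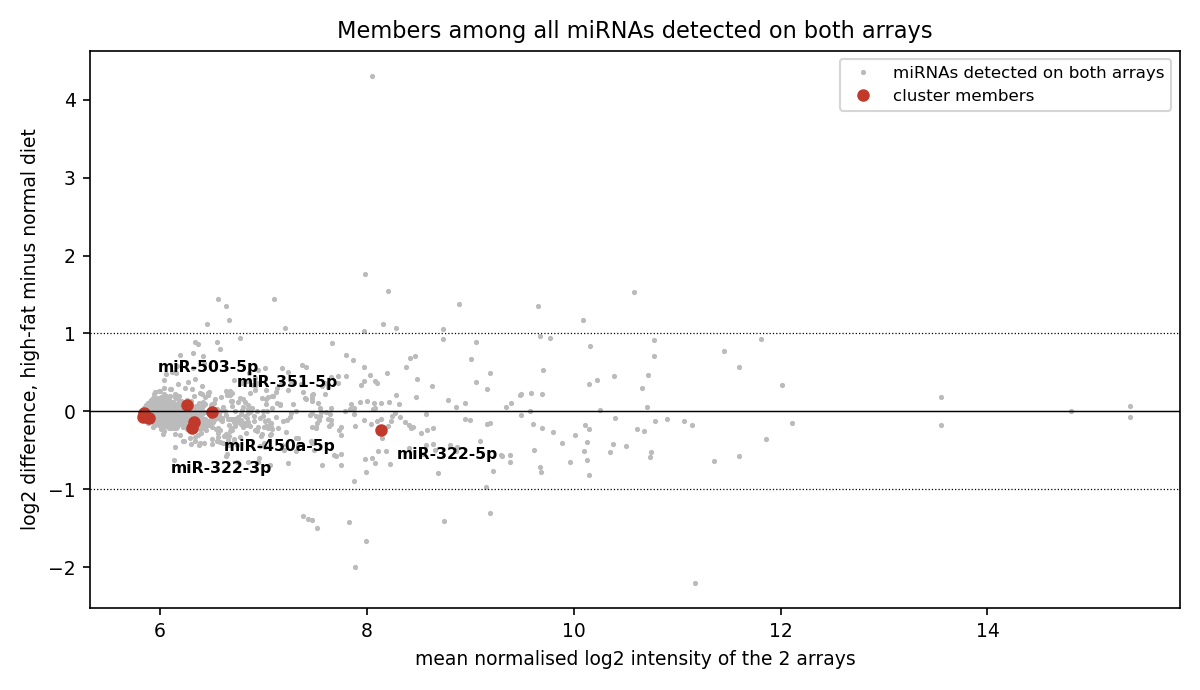
Log2 difference (high-fat minus normal diet, vertical) against the mean normalised log2 intensity of the 2 arrays (horizontal) for 1339 miRNAs detected on both arrays in grey and 8 cluster members in red, with 2-fold as dotted lines. All 8 members lie between -0.24 and 0.08, with miR-322-5p to the right of the others.

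The split of lower and higher members followed the scaling. With spike-control scaling all 8 were higher, with a median of 0.29, and so were 1262 of the 1339 miRNAs, with a median of 0.35. Relative to that shift the members lay slightly below the middle of all miRNAs, as they did under quantile scaling. By the authors' deposited table, lower values were listed for 5 members and higher ones for 3 (median -0.33), against 665 lower and 674 higher among all miRNAs (median 0.005). The 3 higher there were miR-503-5p, miR-503-3p and miR-351-5p, which come from the adjoining Mir503 and Mir351 hairpins. Of these, miR-503-3p lay too near the blanks to be read, and miR-351-5p was at 0.12 there and -0.01 under quantile scaling. No pattern along the locus can be drawn from them.

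**Figure D3:**
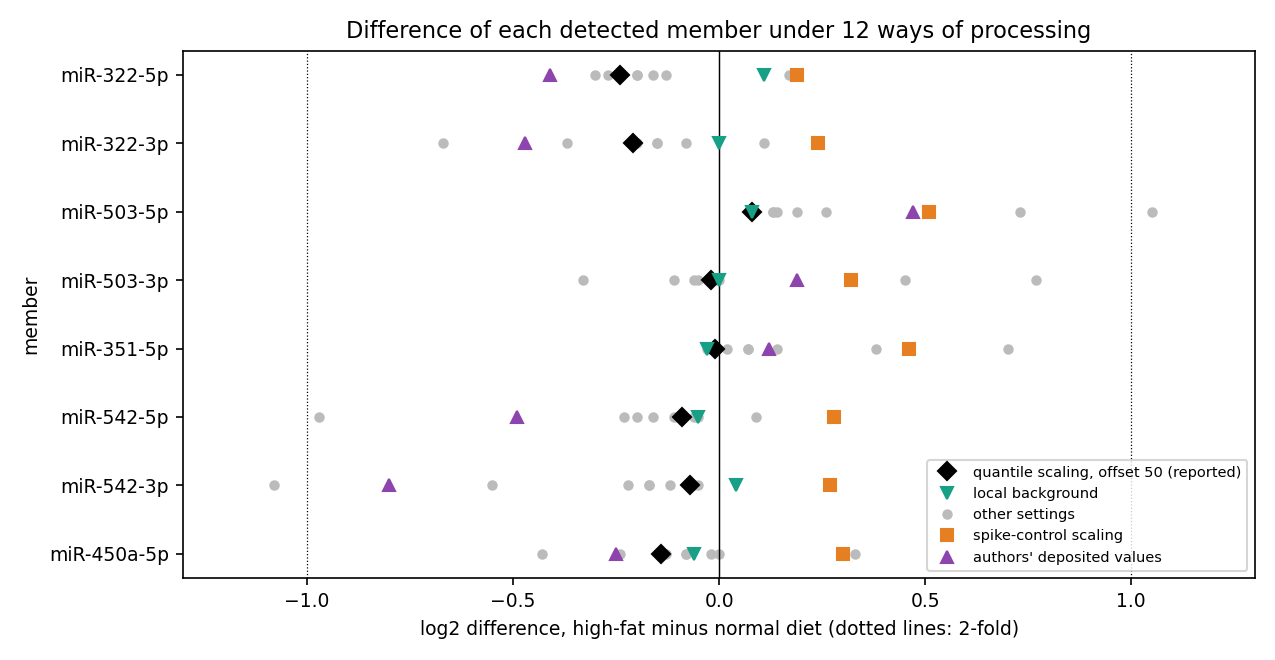
Log2 difference (high-fat minus normal diet, horizontal) of each of the 8 detected members (rows) under 12 ways of processing, with black diamonds for the reported values and coloured symbols for the authors' deposited values, the local background and spike-control scaling. miR-503-5p stays above 0 throughout, from 0.08 to 1.05, while the other 7 members have settings on both sides of 0.

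Base composition was set beside the members' net signals after the values had been seen, and it did not order them fully. G and C make up 62.5% of miR-351-5p, 56.5% of miR-503-5p, 50% of miR-503-3p and 66.7% of miR-351-3p, the arms with a higher net signal on high-fat diet. They make up 40.9% of miR-322-5p, 47.6% of miR-322-3p and 31.8% of miR-542-3p, which had a lower net signal there. miR-542-5p, at 54.5%, was lower as well, and miR-450a-5p, at 31.8%, was equal and thus above both miR-322 arms. The directions of miR-503-3p, miR-542-3p and miR-542-5p rest on signals near the blanks. Among 1138 miRNAs detected on both arrays with a sequence in the table, the median net log2 ratio was 0.01 below 40% G and C, 0.08 from 40% to under 50%, 0.31 from 50% to under 60%, and 0.24 at 60% or more. Under quantile scaling the medians of these 4 classes lay between -0.06 and -0.03. The part of base composition in the members' differences was not tested.

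**Figure D4:**
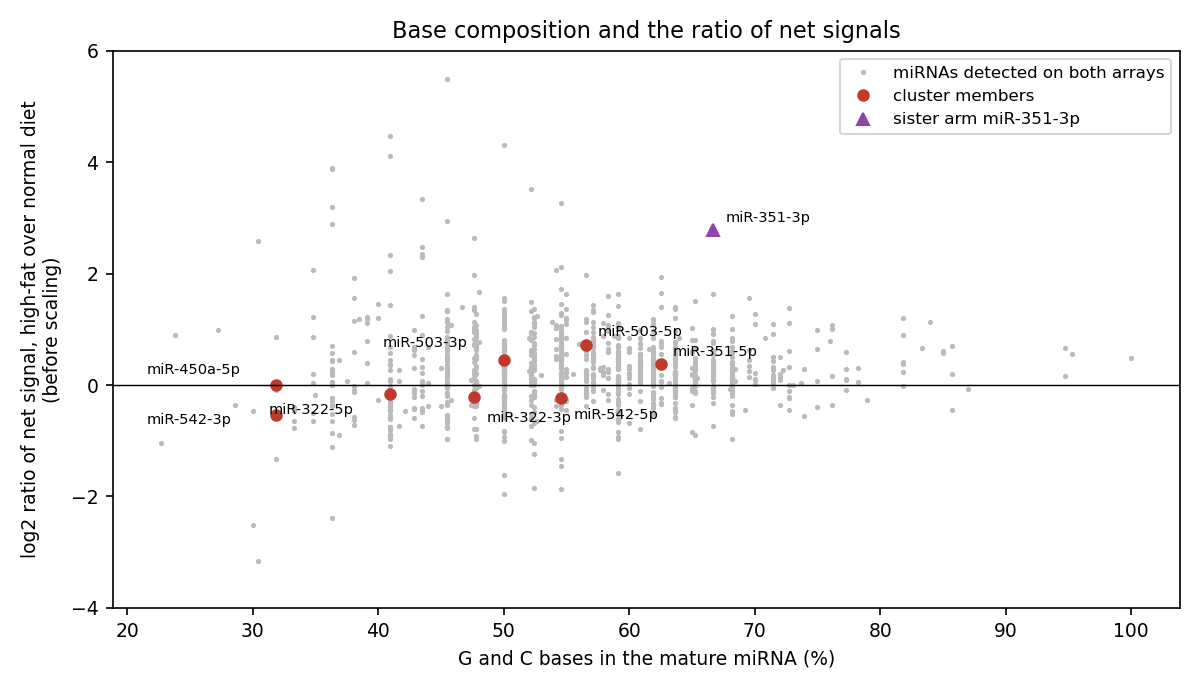
Log2 ratio of net signal, high-fat over normal diet before scaling (vertical), against the percentage of G and C in the mature miRNA (horizontal), for 1138 miRNAs in grey, the 8 detected members in red and the sister arm miR-351-3p as a triangle. miR-351-3p stands at 2.77, apart from the members, which lie between -0.55 and 0.73.

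The seed of miR-322-5p is shared with the miR-15 and miR-16 family, known regulators of the cell cycle and of the survival protein Bcl2, and the seed of miR-351-5p with miR-125a and miR-125b. Their mature strands are shown for comparison with the members, again with seeds in capitals.
miR-15a-5p: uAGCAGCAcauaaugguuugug
miR-15b-5p: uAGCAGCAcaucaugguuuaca
miR-16-5p: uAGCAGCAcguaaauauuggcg
miR-195a-5p: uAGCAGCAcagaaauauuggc
miR-497a-5p: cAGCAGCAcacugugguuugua
miR-125a-5p: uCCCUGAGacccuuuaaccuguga
miR-125b-5p: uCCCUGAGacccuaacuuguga

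Beyond the seed, miR-322-5p matched miR-15b-5p most closely, at 16 of 22 positions in all, and miR-15a-5p and miR-497a-5p at 15 of 22. Of 9 other probes with its seed, 7 were detected on both arrays, of which 5 were lower on the high-fat array (median -0.11). Over all miRNAs detected on both arrays, 862 of 1339 were lower, so this count is close to the background. miR-497a-5p had a net signal of 246.6 on high-fat diet and 311.7 on normal diet (log2 difference -0.47). miR-15b-5p had 175.1 on high-fat diet and 109.3 on normal diet (0.36). miR-16-5p had 1719 on high-fat diet and 1522 on normal diet (0.46), but -0.08 in the authors' deposited table. The seed group therefore held values in both directions, and miR-322-5p lay within its range.

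miR-351-5p had 4 other miRNAs with its seed, all detected on both arrays, of which 2 were lower and 2 higher. miR-125a-5p had a net signal of 378.8 on high-fat diet and 506.6 on normal diet (log2 difference -0.51). miR-125b-5p had 1194 on high-fat diet and 1073 on normal diet (0.40), but -0.10 in the authors' deposited table, where 3 of the 4 were lower. miR-6394 had 46.77 on high-fat diet and 23.73 on normal diet (0.21), and miR-6367 had 20.07 on high-fat diet and 22.44 on normal diet (-0.17). miR-542-5p shared its seed with miR-6966-5p (-0.03), and the other 6 members shared theirs with no other probe that has a sequence in the RefSeq table (1614 of 1888 probes with a single name).

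**Figure D5:**
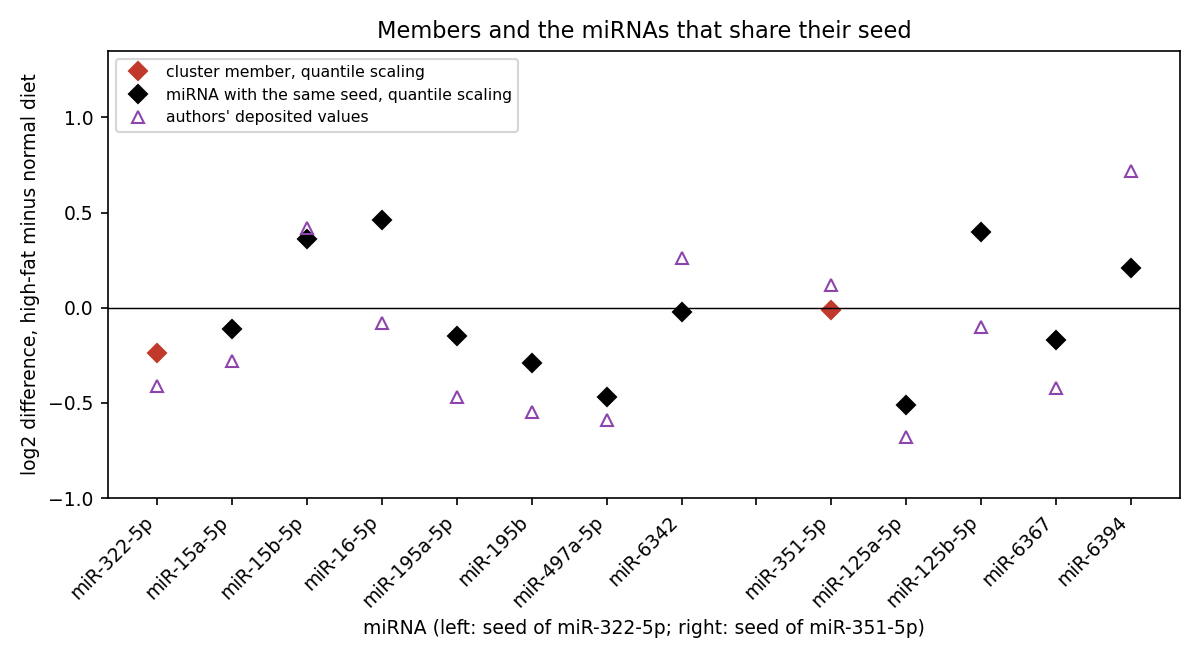
Log2 difference (high-fat minus normal diet, vertical) of miR-322-5p and miR-351-5p in red and of the miRNAs detected on both arrays that have the same seed in black, with the authors' deposited values as open triangles. The group of miR-322-5p runs from -0.47 for miR-497a-5p to 0.46 for miR-16-5p under quantile scaling.

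The non-member miRNAs whose pair of normalised log2 intensities lay nearest to that of miR-322-5p, by Euclidean distance over the 2 arrays, were miR-128-2-5p (distance 0.0774), miR-7042-5p (0.0947) and miR-3084-3p (0.0977). With 2 arrays this says only that their values were close.

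The adipocyte marker list was detected in full on both arrays, 6 of 6 members, with a summed net signal of 2340 on the high-fat array and 4739 on the normal-diet array. Markers of other cells also had different sums on the 2 arrays. The list for epididymis, testis and epithelium was detected at 9 of 9 members on high-fat diet and 5 of 9 on normal diet, with a summed net signal of 3019 on high-fat diet and 41.79 on normal diet. The erythrocyte list summed to 1047 on high-fat diet and 5505 on normal diet, and the leukocyte list to 416.2 on high-fat diet and 794.2 on normal diet. The endothelial list summed to 2670 on high-fat diet and 4318 on normal diet, and the stromal and smooth muscle list to 2439 on high-fat diet and 4059 on normal diet, with 2 of its 4 members higher and 2 lower on the high-fat array after scaling. Skeletal muscle markers, the tissue in which miR-322 and miR-503 are best known, summed to 82.16 on high-fat diet and 56.96 on normal diet, with 4 of 6 detected on each array, of which 2 were higher and 2 lower after scaling. The part of these cell types in the members' values was not tested. In a bulk sample, fewer cells of a type and less RNA per cell cannot be told apart.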

How the data were processed

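Per the file headers, each scanner file holds the median intensity of every spot and of its local background, merged from several gains. The authors' deposited table holds processed intensity on a linear scale. Each value equals the spot median minus the trimmed blank mean, times 1.556 for the high-fat array and 1.858 for the normal-diet array. A miRNA is listed only where it was detected, 1510 on the high-fat array and 1370 on the normal-diet array. Listing and the detection call matched for 1900 of 1900 probes on each array. Of 896 blank spots, 5% were trimmed at each end. Net signals were corrected with normexp (limma 3.58.1, offset 50), put on a log2 scale and quantile scaled over the 1900 miRNA probes. The blank mean served as background in place of the local background column, which followed the brightness of the spot itself (Pearson r across spots with a net signal above 100 of 0.963 over 281 spots on the high-fat array and 0.938 over 263 on the normal-diet array). Differences are high-fat minus normal diet. The pipeline was tested on simulated data, with recovery checked only for probes with a net signal above 100. Of the members only miR-322-5p is that bright, so the check does not cover the others. Mature sequences from RefSeq matched 1614 of 1888 probes with a single name, all 9 members included; 12 probes that name several miRNAs were given no single name. Besides the members, the text names their sister arms, miRNAs with a member's seed, the miR-15 and miR-16 family and the 3 nearest to the brightest member. The members and lists were chosen with earlier results of these data known. With 1 array per diet, no test was made, and the number of arrays limits the precision.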

Additional observations from a re-analysis of the deposited data

How the results depend on the processing

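Alternatives changed the background, offset, scaling or detection limit; 2 of them (plain subtraction without scaling and with spike-control scaling) were chosen after seeing the data. The members' median of -0.08 was -0.38 with plain subtraction, -0.33 in the authors' deposited values, 0.29 with spike-control scaling and 0.25 with plain subtraction and spike-control scaling. Against 7 lower members, 0 were lower with spike-control scaling, 4 with plain subtraction without scaling and 1 with plain subtraction and spike-control scaling. The number lower was 5 with the local background, no scaling and the deposited values. It was 6 with 75th percentile, median and cyclic loess scaling. Against 1 higher member, 2 were higher with 75th percentile, median and cyclic loess scaling, 3 with the local background, no scaling and the deposited values, 4 with plain subtraction without scaling, 7 with plain subtraction and spike-control scaling and 8 with spike-control scaling. Against 0 members past 2-fold, plain subtraction gave 1 (miR-542-3p, -1.08). Plain subtraction with spike-control scaling also gave 1 (miR-503-5p, 1.05), while spike-control scaling with the offset gave 0. Over all miRNAs detected on both arrays, 17 were 2-fold higher and 10 lower, against 24 and 18 with the local background, 30 and 13 with an offset of 16, 45 and 5 with spike-control scaling, 65 and 94 with plain subtraction, 101 and 62 in the deposited values, 179 and 20 with plain subtraction without scaling, and 326 and 14 with plain subtraction and spike-control scaling. Of 88 values of single members under the alternatives of background, offset and scaling, 55 moved by less than 0.17, the SD of a single-spot log2 difference of S-Probe27, and 33 by more. The 0.17 serves only as a dividing line: it is a spread between spots and does not measure a shift of the same spot between processings. For the dim S-Probe7 that SD was 0.68. A limit at 3 SD left 7 members and a median of -0.09. The cause of these shifts was not tested. No paired analysis was possible because each diet has 1 array. miR-503-3p, miR-542-3p and miR-542-5p lie too near the blanks for a fold change to be read.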
